A study of Homo sapiens with 11 samples.

Results

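The genes described here build the contacts of epithelial cells with their basement membrane and with each other: integrin chains, laminin chains and desmosome genes. They were chosen by name, as every gene with a probe set of its own whose symbol starts with ITGA, ITGB, LAMA, LAMB, LAMC, DSG, DSC or PKP followed by a digit, plus CD44, DSP, JUP and FERMT2, with LAMTOR genes left out. COL17A1 and FERMT1 also belong to the rule and are not analysed here. The rule found 41 of 8549 genes, which have 91 of the 16383 probe sets, and each gene was followed through its brightest probe set, judged by the mean of the 11 arrays. They comprise 11 alpha integrin chains, 7 beta integrin chains, 8 laminin chains, 5 desmosomal cadherins, 6 desmosomal plaque genes, CD44 and 3 integrin-binding proteins, of which ITGB1BP1 and ITGB3BP entered only because their symbols begin like those of integrin chains. The cells were SCC9, an established line from a human squamous carcinoma of the tongue, and expression was measured on Affymetrix U133A arrays. There were 3 control arrays, 3 of cells given 0.5 µmol/L cisplatin, 3 of cells given 100 µmol/L nimesulide, and 2 of cells given nimesulide together with cisplatin. For the combination arrays the doses are not given. Comparisons that join them with the single agents take the doses as equal, which could not be checked. Cisplatin is a platinum drug that crosslinks DNA, and nimesulide blocks prostaglandin synthesis with a preference for COX-2. The controls received neither compound, all arrays came from the same line without stroma or matrix of a tumour, and the replicates carry the letters A, B and C, with only A and B for the combination. Nothing in the labels says that the replicates were separate passages, so the spread behind each p-value may be technical.

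Integrins are paired alpha and beta chains in the cell membrane that bind matrix proteins outside and the cytoskeleton inside. In squamous epithelium the chains encoded by ITGA6 and ITGB4 form the laminin receptor of hemidesmosomes, which fasten basal cells to the laminins of the basement membrane. Desmosomes join neighbouring cells: desmogleins and desmocollins (DSG and DSC genes) meet outside the cells, and plakoglobin (JUP), plakophilins (PKP genes) and desmoplakin (DSP) tie them to keratin filaments. CD44 is the cell surface receptor for hyaluronan and is commonly used to mark basal and stem-like squamous cells.

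The promoters of DSC3, DSP and CD44, 3 of the genes that recur in the comparisons below, are shown first. They are the 250 bases before the RefSeq start of each gene on GRCh38.p14, written 5′ to 3′ on the gene's strand with GC boxes (GGGCGG or CCGCCC) in capitals. The DSC3 window lies at chr18:31042743-31042992 on the minus strand, that of DSP at chr6:7541421-7541670 on the plus strand, and that of CD44 at chr11:35138921-35139170 on the plus strand.
DSC3: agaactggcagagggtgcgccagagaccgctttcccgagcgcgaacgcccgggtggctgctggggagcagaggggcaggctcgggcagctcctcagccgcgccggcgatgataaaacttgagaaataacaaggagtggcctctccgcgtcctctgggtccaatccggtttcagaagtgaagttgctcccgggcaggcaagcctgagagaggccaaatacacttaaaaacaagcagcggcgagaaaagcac
DSP: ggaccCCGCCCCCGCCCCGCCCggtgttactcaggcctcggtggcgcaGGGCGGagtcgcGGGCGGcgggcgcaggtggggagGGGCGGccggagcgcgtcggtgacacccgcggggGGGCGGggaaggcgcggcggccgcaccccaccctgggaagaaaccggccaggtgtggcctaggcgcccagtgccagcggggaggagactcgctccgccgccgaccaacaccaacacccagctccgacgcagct
CD44: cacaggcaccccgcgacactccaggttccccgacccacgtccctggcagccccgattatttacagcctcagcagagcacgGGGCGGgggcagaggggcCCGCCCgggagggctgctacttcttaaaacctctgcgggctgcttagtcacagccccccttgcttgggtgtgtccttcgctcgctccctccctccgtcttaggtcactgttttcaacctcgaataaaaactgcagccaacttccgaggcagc
The DSP window held 7 GC boxes and that of CD44 held 2, while the DSC3 window had none. Among the 33 members with an entry in the table, 19 had a GC box, which is 57.58%, against 42.31% of all 27305 promoters. The AP-1 motif TGANTCA was in 0 of the 33 and in 6.596% of all promoters. The TEAD motif GGAATG or CATTCC was in 4 of the 33 (ITGA10, LAMA2, ITGB1 and ITGA5) and in 11.9% of all. The 27305 promoters reach beyond the 8549 genes measured here, so the shares of members and of all promoters have unlike bases. Both strands were searched, and these letter matches are a description of the windows, not of factor binding.

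All values below are deposited log2 intensities made with RMA, so that a difference of 1 is a doubling of signal. The array medians lay between 5.37 and 5.43, and 25 of the 41 genes were above the median on all 11 arrays, while 12 were above it on none. The first set holds ITGA2, ITGA3, ITGA5, ITGA6, ITGB1, ITGB4, ITGB5, LAMA5, LAMB1, LAMB3, LAMC1, DSC2, DSG3, DSP, JUP, PKP2, PKP3, PKP4 and CD44. It also holds ITGA2B, ITGA10, LAMA4, FERMT2, ITGB1BP1 and ITGB3BP. The mean levels of ITGA2B and ITGA10, at 5.67 and 5.72, were close to the array medians. The second set, where a dim probe set may report little of the gene itself, holds ITGA1, ITGA4, ITGA8, ITGA9, ITGB2, ITGB3, LAMA2, LAMB2, LAMB4, DSC1, DSG1 and PKP1. The remaining members, ITGB7, DSC3, ITGA7 and ITGB8, were above the array median on 9, 8, 5 and 4 arrays. Of the 10 keratinocyte markers listed as a check of the cell type, 6 were measured, and KRT5, KRT16, CDH1, CDH3 and SFN were above the array median on all 11 arrays. KRT14 was above it on 3 arrays. The mean log2 level of 7 fibroblast markers lay between 4.76 and 4.87 over the arrays, that of 5 leukocyte markers between 5.05 and 5.18, and that of 5 endothelial markers between 3.96 and 4.15, all below the array medians. Among these markers, THY1, CD3E and LCP1 were above the array median on all 11 arrays and DCN on 10.

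Without the replicate letters in the fit, no member passed the test in any of the 5 comparisons of treatments, nor in the averaged effect of nimesulide, the averaged effect of cisplatin or their interaction (limma, Benjamini-Hochberg over all 16383 probe sets, adjusted p under 0.05). The averaged nimesulide effect is the mean of nimesulide against control and combination against cisplatin, and the interaction is the second of these differences minus the first. Of all probe sets, 0.00610% passed for nimesulide against control, 0.153% for the averaged nimesulide effect, and 0.00% in each of the other comparisons. With the replicate letter as a block, DSC3 passed for the combination against control (adjusted p = 0.03097) and for the averaged nimesulide effect (adjusted p = 0.04036), and the shares of probe sets that passed were 0.226% for nimesulide against control, 0.201% for the combination against control, 0.226% for the combination against cisplatin and 0.525% for the averaged nimesulide effect. At an unadjusted p under 0.05, 8 members (19.51%) passed for nimesulide against control, where 5.43% of all probe sets did. For cisplatin against control 1 member did (2.439%, against 4.65% of probe sets), and for the combination against control 7 did (17.07%, against 7.90%). For the combination against cisplatin 4 members did (9.756%, against 7.09%), and against nimesulide 2 did (4.878%, against 6.79%). For the averaged nimesulide effect 6 did (14.63%, against 7.56%), for the averaged cisplatin effect 4 did (9.756%, against 6.89%) and for the interaction 2 did (4.878%, against 4.57%). These shares have unlike bases: each member counts through its brightest probe set, while the others cover all probe sets, including dim and unannotated ones. The members' median log2 difference was 0.0345 for nimesulide against control, with a median of -0.0026 over all genes. It was -0.0209 for cisplatin against control (all genes -0.0149) and 0.0204 for the combination against control (all genes -0.0196). The comparisons share arrays: the 3 control arrays stand in 3 of them and the 2 combination arrays in 3.

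CD44, the hyaluronan receptor, was higher on every nimesulide array than on any control array. Its level was 10.63, 10.80 and 10.58 on control arrays A, B and C, and 10.90, 10.96 and 10.99 on the nimesulide arrays. With cisplatin alone it was 10.73, 10.85 and 10.66, and with the combination 10.99 on A and 10.86 on B. All 3 nimesulide arrays and both combination arrays lay above all control arrays, whereas the cisplatin arrays overlapped the controls. The mean was 10.67 ± 0.12 (SD, n = 3) in control and 10.95 ± 0.046 (SD, n = 3) in nimesulide, a log2 difference of 0.28 with SE 0.077 and a limma adjusted p of 0.7191. Within letters, nimesulide arrays were above control by 0.27 for A, 0.15 for B and 0.41 for C, and combination arrays above cisplatin by 0.25 for A and 0.0099 for B. The averaged nimesulide difference was 0.23 (SE 0.057, adjusted p = 0.2434), and the averaged cisplatin difference was 0.0251 (SE 0.057, adjusted p = 0.9491). With the letter as a block, these adjusted p of limma were 0.166 and 0.9646.

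**Figure D1:**
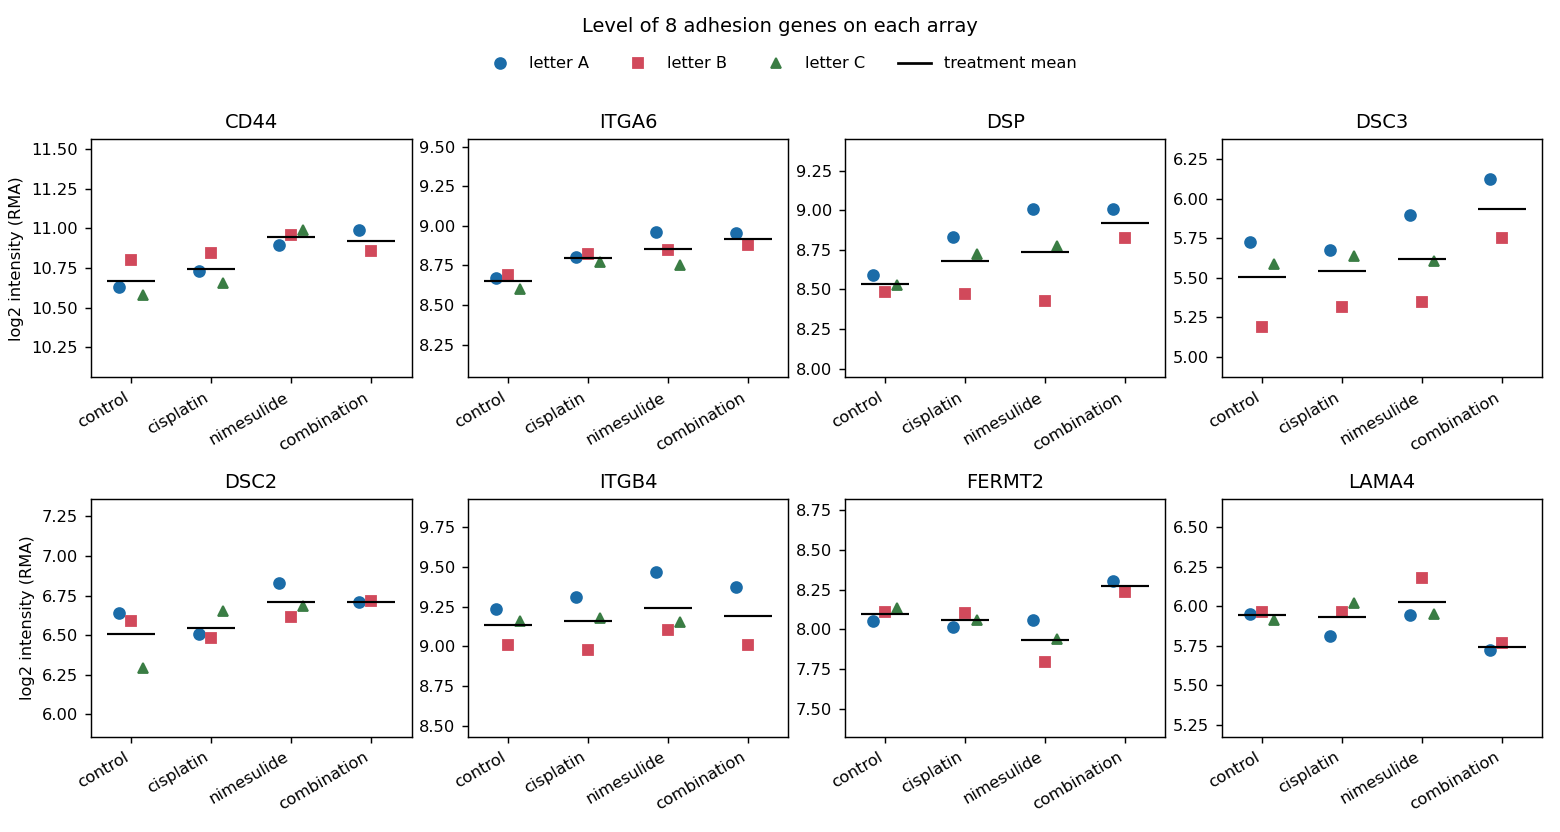
Log2 RMA intensity (vertical axis) of 8 genes on each of the 11 arrays by treatment, with a symbol per replicate letter and a line at the treatment mean; every panel spans the same log2 range. The 3 nimesulide arrays of CD44 sit between 10.90 and 10.99, all above its control arrays, and DSC3 is lowest on array B in every treatment.

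Among alpha integrins, ITGA6, the hemidesmosomal laminin receptor chain, was the only one whose arrays in each treatment lay above all control arrays. It measured 8.67, 8.69 and 8.60 in control A, B and C, 8.80, 8.82 and 8.77 in cisplatin, and 8.96, 8.85 and 8.75 in nimesulide. The combination arrays gave 8.96 and 8.88. The log2 difference from control was 0.20 in nimesulide (SE 0.068, adjusted p = 0.9059), 0.14 in cisplatin (SE 0.068, adjusted p = 0.9681) and 0.26 in the combination (SE 0.076, adjusted p = 0.3707). Its other bright probe set gave 0.0748 for nimesulide (SE 0.10) and 0.11 for the combination (SE 0.12), but -0.11 for cisplatin (SE 0.10).

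ITGA2, a collagen receptor chain, had the largest positive differences from control among members in both single agents, and array C of the control carried most of them. It measured 6.59 on A, 6.62 on B and 5.92 on C in control, against 6.72, 6.76 and 6.59 in nimesulide and 6.59, 6.64 and 6.38 in cisplatin. The nimesulide difference was 0.32 (SE 0.15, adjusted p = 0.9159), made of 0.13 for A, 0.15 for B and 0.67 for C. Without control array C, the cisplatin difference went from 0.16 (SE 0.15, adjusted p = 0.9681) to -0.065. The combination arrays read 6.59 and 6.46, within the range of the controls.

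ITGA5, a fibronectin receptor chain, was 6.83, 7.11 and 7.06 in control and 6.80, 6.84 and 6.87 in cisplatin, lower by -0.16 on the log2 scale (SE 0.095, adjusted p = 0.9681). The cisplatin and control arrays overlapped through control A, which stood at the level of the treated arrays. Its values were 6.88, 6.80 and 6.84 in nimesulide and 7.13 and 6.74 in the combination. ITGA10, another collagen receptor chain, was 5.69, 5.83 and 5.87 in control, 5.78, 5.64 and 5.65 in cisplatin, 5.73, 5.74 and 5.79 in nimesulide and 5.70 and 5.47 in the combination, a log2 difference of -0.17 between combination and nimesulide (SE 0.085, adjusted p = 0.7479). Over all 11 alpha chains, 5 were higher and 6 lower in nimesulide than in control, with a median of -0.0083 and a range from -0.16 to 0.32. In cisplatin 4 were higher and 7 lower, with a median of -0.0334.

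ITGB4, which pairs with ITGA6 in hemidesmosomes, differed little between treatments in its brightest probe set and more in the others. The brightest measured 9.24, 9.01 and 9.16 in control A, B and C, 9.31, 8.98 and 9.18 in cisplatin, 9.47, 9.10 and 9.16 in nimesulide, and 9.38 and 9.01 in the combination. Array B was lowest in every treatment. The difference from control was 0.11 in nimesulide (SE 0.12, adjusted p = 0.9728) and 0.0575 in the combination (SE 0.13, adjusted p = 0.944). For cisplatin against control it was 0.023 (SE 0.12, adjusted p = 0.9907), whereas the other bright probe sets gave -0.26 (SE 0.10) and -0.30 (SE 0.17), each with an adjusted p of 0.9681. For the combination against cisplatin the brightest gave 0.0345 (SE 0.13, adjusted p = 0.9767) and the others 0.31 (SE 0.11, adjusted p = 0.6055) and 0.54 (SE 0.19, adjusted p = 0.5925).

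ITGB1, the beta chain shared by most matrix receptors, measured 11.12, 11.26 and 11.06 in control, 11.15, 11.32 and 11.21 in cisplatin, 11.25, 11.23 and 11.12 in nimesulide, and 11.37 and 11.22 in the combination. These arrays overlapped throughout, and the cisplatin difference was 0.0801 (SE 0.076, adjusted p = 0.9681). ITGB8, a partner of the alpha V chain, measured 5.43, 5.43 and 4.98 in control, 5.23, 5.11 and 5.28 in cisplatin, 5.51, 4.76 and 5.16 in nimesulide, and 5.33 and 5.54 in the combination. Both combination arrays lay above the cisplatin arrays, by 0.22 on average (SE 0.18, adjusted p = 0.8377), and nimesulide B stood lowest of all. ITGB3, another partner of alpha V, was below the array median on every array. It measured 5.18, 5.15 and 5.22 in control, 5.18, 5.18 and 5.25 in cisplatin, 5.22, 5.25 and 5.18 in nimesulide, and 5.10 and 5.08 in the combination, a difference of -0.12 between combination and cisplatin (SE 0.065, adjusted p = 0.7504). Of the 7 beta chains, 5 were higher and 2 lower in nimesulide than in control, with a median of 0.0499, and the lowest value was -0.22 for ITGB2, the leukocyte chain, which was dim on all arrays.

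FERMT2 encodes kindlin-2, which binds beta chain tails and activates integrins, and it separated the combination from every other treatment. It measured 8.05, 8.11 and 8.14 in control, 8.01, 8.10 and 8.06 in cisplatin, and 8.06, 7.79 and 7.94 in nimesulide, against 8.30 and 8.24 in the combination. The combination arrays were above all 9 others. The difference from nimesulide was 0.34 (SE 0.081, adjusted p = 0.707), with 0.25 for letter A and 0.44 for B, and the interaction was 0.38 (SE 0.11, adjusted p = 0.9628). A less bright probe set of FERMT2 gave 0.13 for nimesulide against control (SE 0.066), where the main probe set gave -0.17 (SE 0.072), and 0.0632 for the combination against nimesulide (SE 0.073, adjusted p = 0.9011). For the combination against control the probe sets gave 0.17 (SE 0.081, adjusted p = 0.6298) and 0.20 (SE 0.073, adjusted p = 0.5332). ITGB3BP, which also encodes a centromere protein, measured 8.22, 8.08 and 8.28 in control, 8.13, 8.09 and 8.24 in cisplatin, 8.09, 8.04 and 8.28 in nimesulide, and 8.13 and 8.30 in the combination, a difference of -0.0572 between nimesulide and control (SE 0.082, adjusted p = 0.9781).

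The brightest probe sets of the laminin chains were mostly lower in the combination than in control or nimesulide, by amounts that did not pass the test. Against nimesulide 1 of the 8 chains was higher and 7 were lower, with a median of -0.0591, and against control the counts were again 1 and 7, with a median of -0.0489. Over all genes, 44.8% were higher than in nimesulide and 42.23% higher than in control. Some of the differences from control were slight: LAMB3 gave -0.002 (SE 0.14), LAMA2 -0.0234 (SE 0.088) and LAMA5 -0.0373 (SE 0.16). LAMA2, LAMB2 and LAMB4 were dim on all arrays. The other bright probe sets of LAMC1 and LAMB1 had the opposite sign to the brightest, at 0.0562 (SE 0.096) and -0.16 (SE 0.095) against control.

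LAMA4, an alpha chain best known from vessel basement membranes, measured 5.95, 5.96 and 5.91 in control, 5.81, 5.96 and 6.02 in cisplatin, and 5.95, 6.18 and 5.95 in nimesulide, against 5.72 and 5.77 in the combination. Both combination arrays were below the other 9. The difference was -0.20 from control (SE 0.086, adjusted p = 0.6047) and -0.28 from nimesulide (SE 0.086, adjusted p = 0.707). Its next brightest probe set, with a mean of 5.15 below the array medians, had the opposite sign, at 0.20 from control (SE 0.093, adjusted p = 0.6298) and 0.25 from nimesulide (SE 0.093, adjusted p = 0.7187).

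LAMB2, dim on all arrays, measured 4.51, 4.49 and 4.74 in control, 4.74, 4.53 and 4.68 in cisplatin, 4.47, 4.56 and 4.66 in nimesulide, and 4.45 and 4.36 in the combination, a difference of -0.24 between combination and cisplatin (SE 0.093, adjusted p = 0.6125). LAMB4, also dim on all arrays, measured 4.06, 4.04 and 4.01 in control and 3.86, 3.88 and 3.83 in cisplatin. Its values were 3.86, 3.83 and 3.92 in nimesulide and 3.93 and 3.75 in the combination, so that every treated array was below every control array. The difference was -0.16 in nimesulide (SE 0.064, adjusted p = 0.9059) and -0.18 in cisplatin (SE 0.064, adjusted p = 0.9681).

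DSC3, which encodes desmocollin 3 of the basal layers and whose promoter is printed above, had the largest difference of all members between combination and control. It measured 5.72, 5.19 and 5.59 in control A, B and C, 5.68, 5.32 and 5.64 in cisplatin, and 5.90, 5.35 and 5.61 in nimesulide, against 6.12 and 5.75 in the combination. DSC3 was above the array median on 8 of the 11 arrays, and array B of control, cisplatin and nimesulide lay below it. Both combination arrays were above all control and cisplatin arrays, while nimesulide A lay between them. Within letters the combination exceeded control by 0.40 for A and 0.56 for B, cisplatin by 0.45 and 0.43, and nimesulide by 0.23 and 0.40. The difference from control was 0.43 (SE 0.18, adjusted p = 0.5712), a fold of 1.35, in the fit without letters. With the letter as a block it was 0.46 (SE 0.080), and DSC3 then passed with an adjusted p of 0.03097, among the 0.201% of probe sets that did. With the block, DSC3 also passed for the averaged nimesulide effect (0.27, SE 0.053, adjusted p = 0.04036, against 0.6609 without it), where 0.525% of probe sets passed. For the combination against cisplatin the adjusted p with the block was 0.05452.

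These calls of DSC3 depended on single arrays. When each of the 11 arrays and each of the 3 letters was left out of the fit with the block, the combination against control passed without cisplatin A, cisplatin B, nimesulide A or nimesulide C. It did not pass in the others, with adjusted p up to 0.3607 without letter B, and the difference stayed between 0.39 and 0.52. The averaged nimesulide effect passed in none of these, with adjusted p between 0.06596 and 0.2649. The other probe set of DSC3 gave 0.39 for the combination against control (SE 0.19), with an adjusted p of 0.6398, or 0.24 with the block.

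The other desmosomal cadherins with measurable signal were also higher in nimesulide than in control, without passing the test. DSC2, desmocollin 2, measured 6.64, 6.59 and 6.29 in control, 6.51, 6.48 and 6.65 in cisplatin, 6.83, 6.61 and 6.68 in nimesulide, and 6.71 and 6.72 in the combination. The averaged nimesulide difference was 0.18 (SE 0.069, adjusted p = 0.5584), and all 5 within-letter differences were positive, from 0.026 to 0.39. DSG3, desmoglein 3, the antigen of pemphigus vulgaris, measured 5.55, 5.41 and 5.69 in control, 5.42, 5.60 and 5.61 in cisplatin, 5.91, 5.60 and 5.88 in nimesulide, and 5.69 and 5.54 in the combination. Nimesulide exceeded control in all 3 letters, by 0.25 on average (SE 0.097, adjusted p = 0.9059), but the combination lay below nimesulide by -0.18 (SE 0.11, adjusted p = 0.7768). Against cisplatin the combination gave 0.0726 (SE 0.11), with combination B below cisplatin B. DSG1, the desmoglein of upper layers, was dim on all arrays at 3.05, 3.06 and 3.08 in control, 3.04, 3.02 and 3.05 in cisplatin, 3.01, 3.16 and 3.05 in nimesulide, and 2.90 and 3.0 in the combination. Of the 5 desmosomal cadherins, 5 were higher in nimesulide than in control, with a median of 0.11 and a range from 0.0092 to 0.25, while 48.77% of all genes were higher. These include DSC1, at 0.0471 (SE 0.081), and DSG1, both dim on all arrays. In cisplatin 2 were higher and 3 lower, with a median of -0.0084.

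DSP, the desmoplakin gene, was the plaque member with the largest difference between combination and control. It measured 8.59, 8.48 and 8.53 in control, 8.83, 8.47 and 8.72 in cisplatin, and 9.01, 8.43 and 8.78 in nimesulide, against 9.01 and 8.82 in the combination. Both combination arrays were above all control arrays, whereas array B of each single agent lay just below the lowest control. The difference from control was 0.38 in the combination (SE 0.14, adjusted p = 0.5093), with 0.42 for letter A and 0.34 for B, and the adjusted p with the letter as a block was 0.1623. In nimesulide it was 0.20 (SE 0.13, adjusted p = 0.9566), with 0.41 for A, -0.0529 for B and 0.25 for C.

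The plakophilin genes PKP1 and PKP3 were lower on both combination arrays than on any control array, by amounts that did not pass the test. PKP1, dim on all arrays, measured 4.25, 4.35 and 4.53 in control, 4.14, 4.13 and 4.40 in cisplatin, 4.0, 4.41 and 4.24 in nimesulide, and 4.24 and 4.03 in the combination, a difference of -0.24 between combination and control (SE 0.12, adjusted p = 0.6696). PKP3, above the array median throughout, measured 9.31, 9.30 and 9.38 in control, 9.29, 9.15 and 9.28 in cisplatin, 9.35, 9.34 and 9.30 in nimesulide, and 9.26 and 9.25 in the combination. It was lower with cisplatin in all 5 within-letter differences, from -0.16 to -0.0194, and the averaged cisplatin difference was -0.0877 (SE 0.047, adjusted p = 0.7367). Over the 6 plaque genes, 3 were higher and 3 lower in the combination than in control, with a median of -0.0013.

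Each letter gave a nimesulide difference without cisplatin and, for A and B, another with cisplatin, so that 5 such differences came from separate arrays. Of the 41 members, 4 were higher with nimesulide in all 5 (CD44, DSC2, DSC3 and ITGA6), which is 9.756%, against 4.27% of all genes. Lower in all 5 were 0 members, against 3.85% of genes. For cisplatin, 0 members were higher in all 5, against 3.17% of genes, and 2 were lower, DSG1 and PKP3, which is 4.878% against 5.38% of genes.

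**Figure D2:**
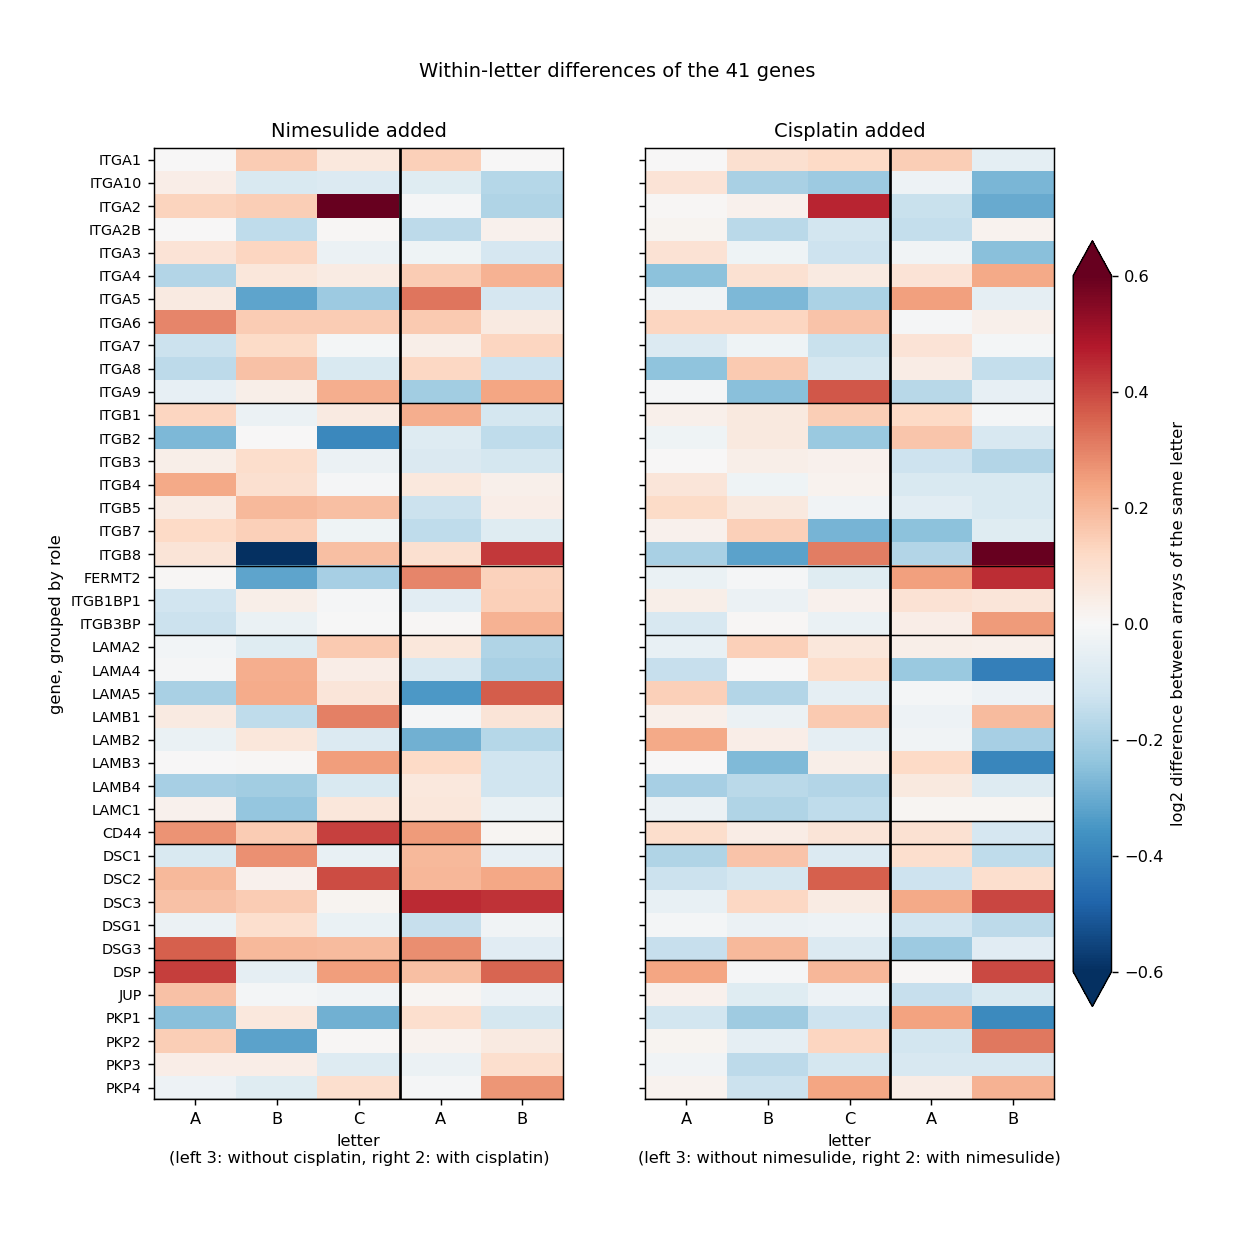
Log2 difference (colour) between arrays of the same letter for the 41 genes, in rows grouped by role, when nimesulide (left panel) or cisplatin (right panel) was added; columns are letters, without the other drug on the left of the black line and with it on the right. Colours saturate at 0.6, and CD44, DSC2, DSC3 and ITGA6 are above 0 in all 5 nimesulide columns.

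Members were also counted by whether the arrays of a treatment lay all above or all below those of another. For the combination against control 7 members (17.07%) had both arrays above all controls, namely CD44, DSC2, DSC3, DSP, FERMT2, ITGA6 and LAMB1, where 9.70% of all genes did. Another 8 (19.51%) had both below, namely DSG1, ITGB2, ITGB3, LAMA4, LAMB2, LAMB4, PKP1 and PKP3, where 14.9% of genes did. Of these 8, DSG1, ITGB2, ITGB3, LAMB2, LAMB4 and PKP1 were dim on all arrays. For nimesulide against control 3 were above (CD44, ITGA6 and ITGB5; 7.317% against 4.59% of genes) and LAMB4 was below (2.439% against 5.26%). For the combination against cisplatin 6 were above (CD44, DSC2, DSC3, FERMT2, ITGA6 and ITGB8; 14.63% against 10.3%) and 5 below (DSG1, ITGB2, ITGB3, LAMA4 and LAMB2; 12.2% against 10.7%). Against nimesulide FERMT2 alone was above (2.439% against 8.66%), and 8 were below (DSG1, ITGA10, ITGB3, ITGB7, LAMA4, LAMA5, LAMB2 and PKP3; 19.51% against 13.4%). For cisplatin against control ITGA6 was above (2.439% against 3.38%), and LAMB4 and PKP3 were below (4.878% against 5.31%).

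Several probe sets per gene gave a check within the same arrays. CD44 had 6 bright probe sets, and for nimesulide against control all 6 were positive, from 0.21 to 0.30. For the averaged nimesulide effect they ranged from 0.23 to 0.36, and 1 of the 6 passed with the letter as a block (0.31, SE 0.069, adjusted p = 0.129 without the block and 0.04934 with it). For cisplatin against control the other 5 gave values from -0.19 to -0.0073, where the brightest gave 0.0752. Of the 9 members with several probe sets above the array median, the signs were the same over the probe sets of 7 for nimesulide against control, and of 6 both for the combination against control and for the averaged nimesulide effect. For the averaged cisplatin effect they were the same for 2 of the 9.

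**Figure D3:**
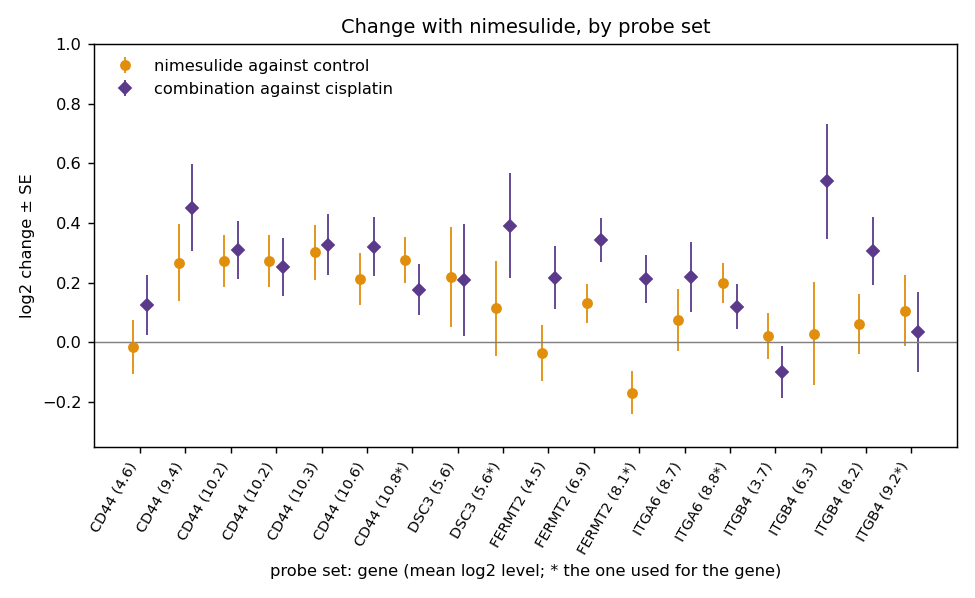
Log2 change ± SE of the limma fit (vertical axis) for every probe set of CD44, DSC3, FERMT2, ITGA6 and ITGB4, each labelled with its mean log2 level; circles are nimesulide against control and diamonds combination against cisplatin. The 6 bright CD44 probe sets lie above 0 in both comparisons, while the brightest FERMT2 probe set is below 0 in the first.

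The brightest probe sets of DSC3 and ITGB4 differed between the replicate letters. In an F test of the letters within treatments (limma), DSC3 had an adjusted p of 0.004773 and ITGB4 of 0.03744, among the 0.873% of probe sets that passed. ITGB4 no longer passed when any array other than nimesulide C was left out, while DSC3 passed each time. The other bright probe sets of ITGB4 had adjusted p of 0.6214 and 0.7777 in this test. DSC3 on letter A exceeded letter B by 0.53 in control, 0.36 in cisplatin, 0.55 in nimesulide and 0.38 in the combination. For ITGB4 the same differences were 0.23, 0.33, 0.36 and 0.37. DSP had an adjusted p of 0.1262, with A above B by 0.11, 0.36, 0.58 and 0.19, and ITGA2 had 0.1292, with C lowest in all 3 treatments that have it.

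The order of the letters was A, C, B from high to low in control, cisplatin and nimesulide for DSC3, ITGB4, DSP and JUP. With ITGA2 and ITGB3BP, 6 members (14.63%) kept an order of the letters over these treatments, against 5.58% of all genes. Genes with equal values on arrays of the same treatment were not counted, which leaves out LAMB3, equal on nimesulide A and C. Of the 6 keratinocyte markers, KRT14 and KRT16 had the order A, C, B as well. KRT5 had it in control and cisplatin but not in nimesulide, and CDH1, CDH3 and SFN kept no order over these treatments. The mean log2 level of the 6 ranged from 8.33 to 8.67 over control arrays, 8.42 to 8.83 over cisplatin, 8.30 to 8.55 over nimesulide and 8.50 to 8.53 over combination arrays. The part of these markers in the letter differences was not tested.

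**Figure D4:**
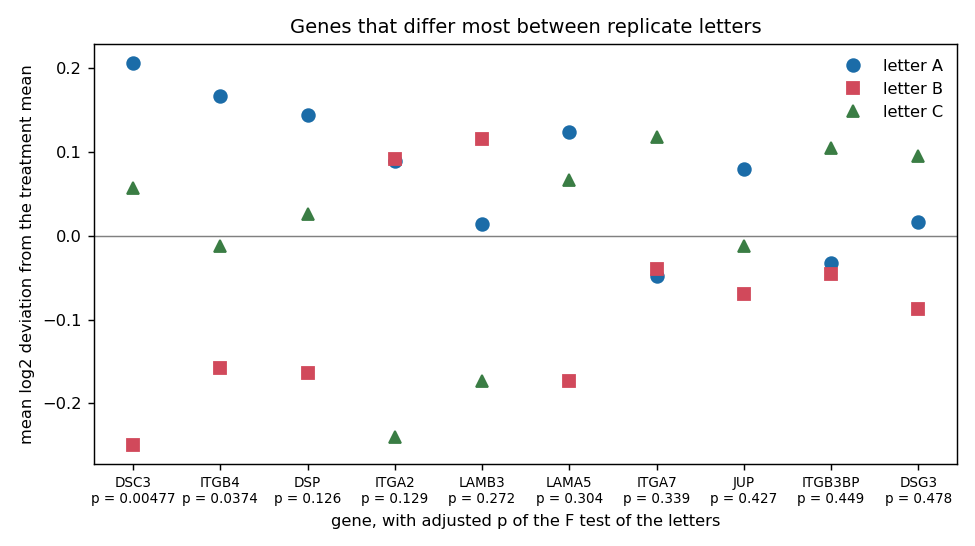
Mean log2 deviation of each letter's arrays from the treatment mean (vertical axis) for the 10 members with the smallest p of the F test of the letters, with the adjusted p under each name. DSC3, ITGB4 and DSP are high on letter A and low on letter B, and ITGA2 is low on letter C.

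Genes around these structures, in 6 lists with 51 measured genes, were read in the same fits, and 0 passed in any comparison with or without the letter as a block (limma). Over all genes, 42.23% were higher in the combination than in control. Of 15 measured adhesion adaptors, 4 were higher and 11 lower in the combination than in control, with a median of -0.061, and talin 1 (TLN1), which links integrin tails to actin, gave -0.21 (SE 0.19, adjusted p = 0.8106). Among 6 hemidesmosome partners, which include basal keratins, 4 were higher and 2 lower in the combination than in control, with a median of 0.0153. KRT5 gave -0.32 there (SE 0.11, adjusted p = 0.5093) and DST gave 0.21 (SE 0.15, adjusted p = 0.7584). KRT14 gave -0.41 for the averaged nimesulide effect (SE 0.18, adjusted p = 0.6444), where 2 partners were higher and 4 lower. For the averaged cisplatin effect KRT14 gave 0.46 (SE 0.18, adjusted p = 0.6901), with 4 higher and 2 lower. Of 6 desmosome and adherens junction partners, 5 were higher and 1 lower in the combination than in control, with a median of 0.0474, and the largest was 0.16 for PPL, periplakin (SE 0.14, adjusted p = 0.8131). Of 13 basement membrane and matrix genes, 3 were higher and 10 lower, with a median of -0.0126, led by fibronectin (FN1) at 0.13 (SE 0.15, adjusted p = 0.8598). Among 7 partners of CD44, 2 were higher and 5 lower in the combination than in control, with a median of -0.0521. HMMR, another hyaluronan receptor, gave 0.32 there (SE 0.12, adjusted p = 0.5478) and CD74 gave -0.25 (SE 0.084, adjusted p = 0.4773). For cisplatin against control 5 of these partners were higher and 2 lower, with a median of 0.0161. HMMR gave 0.37 in that comparison (SE 0.11, adjusted p = 0.9681). Of 5 alpha chains named by a letter, 1 was higher and 4 lower in the combination than in control, with a median of -0.0431. ITGAV, the alpha V chain, gave 0.19 there (SE 0.12, adjusted p = 0.723) and ITGAX gave -0.18 (SE 0.084, adjusted p = 0.6298). For nimesulide against control 2 of these chains were higher and 3 lower. ITGAE gave -0.20 (SE 0.076, adjusted p = 0.9059) and ITGAM gave 0.15 (SE 0.082, adjusted p = 0.9398).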

How the data were processed

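The 11 samples were 1 array each. The deposited values are log2 intensities that the authors made with RMA, per the labels; the version of RMA and which arrays were normalised together are not given in the sources used here. They were used as deposited, with gene names from the platform annotation: 14045 of 16383 probe sets have 1 symbol, 792 several and 1546 none, and each gene was read from its brightest probe set. Treatments were compared with limma (version 3.58.1, under R 4.3.3), fitting a mean per treatment with moderated variances and 7 residual degrees of freedom, with Benjamini-Hochberg adjustment over all probe sets. The fit recovered seeded changes in simulated data that had no letter effect. Those changes were larger than any member difference here, so the check does not cover differences of these sizes. Alternatives were the replicate letter as a block (5 residual degrees of freedom), each array left out, quantile normalization, bright probe sets only, a trended robust fit and the median over each gene's probe sets; the block with an array or letter left out was chosen after seeing the data. The arrays' number limits the precision.

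Whether letters pair samples was checked on deviations from treatment means: control and single agent arrays of the same letter correlated at 0.135 to 0.355 (6 pairs), cisplatin with nimesulide at 0.0831 to 0.232, pairs with a combination array at 0.0883 to 0.210, and arrays of different letters at -0.251 to 0.0342. Same-letter pairs of each kind thus correlated above these different-letter pairs, which held no combination array. Pairs with a combination array were not compared with different-letter pairs that held such an array. Deviations cancel within a treatment, so positive values for the same letter go with negative values for different letters. What the letters share is not stated in the labels. All members are accounted for; values on every array are given for members that passed a test, for the 3 largest rises and falls per comparison with within-letter differences of 1 sign, and for CD44, ITGA6, ITGB4 and DSP. The members and lists were chosen with earlier results of these data known.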

Additional observations from a re-analysis of the deposited data

How the results depend on the processing

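With the replicate letter as a block, 1 member passed for the combination against control (DSC3) and 1 for the averaged nimesulide effect (DSC3); the block changed no other call of a member in these comparisons. With the block, 1 member also passed for the combination against control without cisplatin A, cisplatin B, nimesulide A or nimesulide C, and 1 for the combination against cisplatin without nimesulide A (DSC3). For letters, 1 member passed when the median over each gene's probe sets was taken, and 1 to 2 with an array left out. Members called in the other comparisons stayed at 0 under every setting.

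The members' median moved as follows. On bright probe sets it was 0.0543 for nimesulide and 0.0312 for the combination against control. After quantile normalization it was -0.0027 for cisplatin and 0.003 for the combination against control. Taking the median over each gene's probe sets it was -0.0075 for the combination against control. With an array left out it ranged from 0.0037 to 0.035 for nimesulide, -0.0359 to 0.0038 for cisplatin and -0.0282 to 0.0339 for the combination, each against control, from -0.0136 to 0.0389 for the combination against cisplatin, -0.0714 to 0.0071 against nimesulide and -0.0463 to 0.0182 for the interaction.

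Some differences of named genes, none of which had passed the test, turned sign. Taking the median over each gene's probe sets, cisplatin against control gave -0.0152 for CD44, -0.048 for ITGB1 and -0.2799 for ITGB4; ITGB3 gave 0.0362 for the combination against cisplatin, ITGB4 0.0979 against nimesulide and CD44 -0.0161 for the averaged cisplatin effect. The interaction then gave 0.0317 for ITGA6 and 0.3778 for ITGB4. After quantile normalization, CD44 gave 0.0003 for the combination against nimesulide and DSP -0.0044 for the interaction.

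With an array left out, ITGB4 ranged from -0.0065 to 0.176 for nimesulide against control, -0.0542 to 0.112 for cisplatin against control, -0.1263 to 0.2412 for the combination against control, -0.1492 to 0.2183 against cisplatin, -0.2325 to 0.1351 against nimesulide, -0.0215 to 0.1622 for averaged nimesulide, -0.1048 to 0.079 for averaged cisplatin and -0.2554 to 0.1121 for the interaction. ITGA2 ranged from -0.065 to 0.2858 for cisplatin against control, and DSP from -0.1175 to 0.1711 for the interaction. CD44 ranged from -0.0902 to 0.0403 for the combination against nimesulide and from -0.0075 to 0.0582 for averaged cisplatin. DSC3 ranged from -0.0404 to 0.2499 for nimesulide and from -0.1126 to 0.1563 for cisplatin against control. The cause of these differences between settings was not tested. The dim genes limit what these arrays show, since 12 members were above the array median on no array.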
